A study of Mus musculus with 16 samples.

Results

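The genes described here carry the symbols of the cell cycle and of mitosis: cyclins, cyclin-dependent kinases (CDKs) and their inhibitors, E2F factors, the machinery of DNA replication, the anaphase-promoting complex with the spindle checkpoint, Aurora and Polo-like kinases, kinesins, and the remaining genes named Cdc. The rule for them used symbols from the annotation of the array and no measured value. It was set with earlier results of these data known. The rule took 123 of 9669 named genes, and 73 of these had a value in both dye orientations in every mouse and were tested, among 6191 genes tested in all. The study compared the right kidneys of 4 male Pept2 knockout mice with wild-type kidney on two-colour spotted cDNA arrays. Pept2, whose gene is Slc15a2, is the proton-coupled transporter that takes up small peptides from the filtrate. Each knockout kidney was hybridised on 4 arrays, 2 with the knockout RNA in channel 1 and 2 with it in channel 2. The other channel always held 1 RNA pool made from 5 right kidneys of wild-type mice.

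All animals came from crosses within a line kept on a mixed C57BL/6 and 129Sv background, were about 88 days old, and were killed in the morning with no treatment named in the labels. The knockout kidneys were labelled Pept2-/- and the pooled kidneys Pept2+/+. No wild-type kidney was hybridised by itself, so the tests against the pool leave out the spread between wild-type animals. Every value below is a log2 ratio of knockout over wild-type pool, and a level in either group was not measured on its own. The deposited ratios were read as channel 1 over channel 2, which is the likely direction. Its basis is that Slc15a2 was then lower in knockout kidney on all 16 arrays, with a mean log2 ratio of -2.51 (SE 0.10, n = 4 mice). Slc15a2 stood at -2.17, -2.74, -2.81 and -2.33 in mice 1 to 4 and had an adjusted p of 2.17e-05 in limma. The direction was taken from this gene, which therefore cannot serve as a check of it, and the sources do not say whether its 1 probe lies in the deleted part. The opposite reading exchanges every sign below.

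A dividing cell passes through phases set by the rise and fall of cyclins, each of which switches on a CDK, while CDK inhibitors hold these kinases back. D-type cyclins start the passage out of rest, E2F factors then switch on the genes of DNA replication, and the MCM and origin recognition complexes license each origin. In mitosis the Aurora and Polo-like kinases and several kinesins build the spindle, and the anaphase-promoting complex releases the sister chromatids by marking securin, the product of Pttg1, for destruction. Most tubule cells of an adult kidney are at rest, and transcripts made only by dividing cells are scarce there. Many genes that share these names work outside division: Kif5b moves organelles, Cdk9 acts in transcription, and Cdc42 is a small GTPase of the cytoskeleton.

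The name of the group covers more genes than the arrays could follow. Of 38 genes of the rule that are typical of cycling cells, 12 were tested (31.6%), against 61 of the other 85 (71.8%), and 64.0% of all named genes were. The 50 genes that were not tested had values on 1 to 13 arrays, and 26 of them had at least 1 value in each mouse. Among them were Cdk1, the kinase of mitotic entry, with values on 9 arrays, the topoisomerase gene Top2a and the kinase gene Aurka with 7 each, Ccnb2, a mitotic cyclin, with 5, and Plk1 and Cdc20, which act at mitotic entry and exit, with 10 each. The sources used here do not give what was required of a spot before it got a value, so a blank is not a measure of a low transcript. The tested genes are therefore mainly those outside the cycling-cell list. One untested gene had a single extreme value: Cdkn2a, which encodes the inhibitor p16 and the p53 regulator p19Arf, stood at 3.92 on 1 array of mouse 2 and at 0.094 and 0.081 on its only other arrays, 1 of mouse 1 and 1 of mouse 4.

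**Figure D1:**
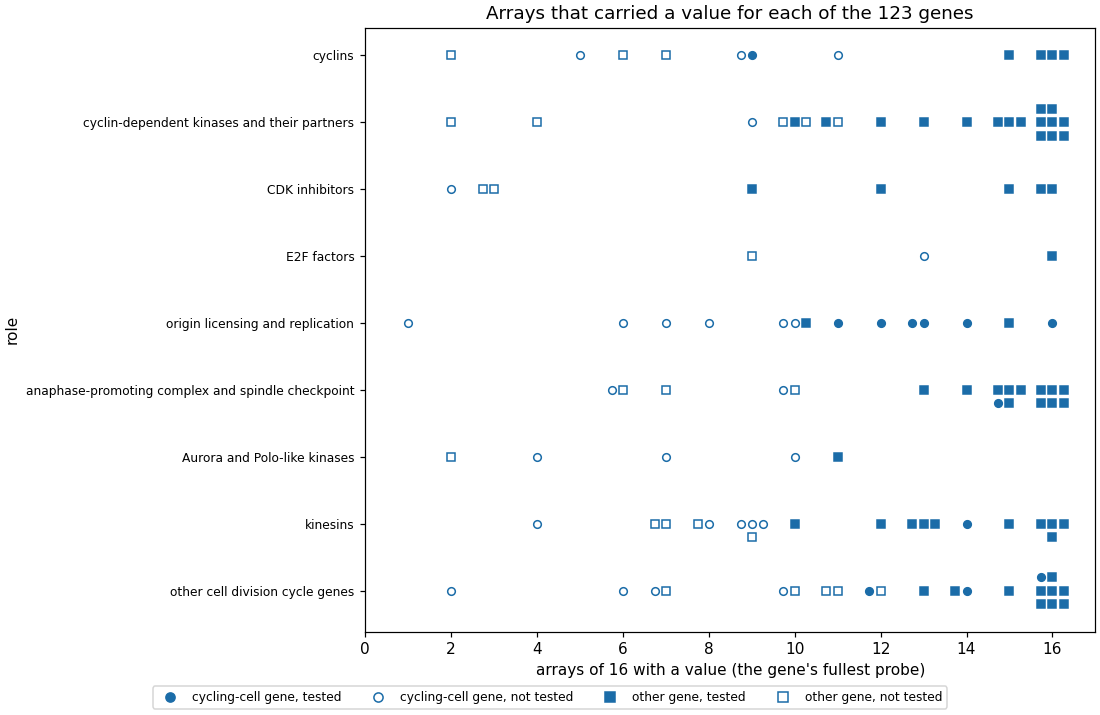
Number of arrays, of 16, that carried a value for each of the 123 genes, by role (for a gene with several probes, the probe with most values). Circles are genes typical of cycling cells and squares the other genes, and filled symbols were tested. Open circles lie between 1 and 13 arrays, while the filled squares crowd at 15 and 16.

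The arrays carried values for between 50.2% and 91.1% of 20205 probes. Of the tested genes, 62 had 1 probe and 11 had several, which were averaged, and 33 had a value on all 16 arrays. As the files hold ratios, they do not show which cell types were present at what level. Of the marker lists, 7 of 12 proximal tubule genes, 5 of 12 collecting duct genes, 2 of 11 erythroid genes and 2 of 9 seminal vesicle genes were tested. The median of the proximal tubule genes was 0.11, 0.020, 0.086 and 0.043 in mice 1 to 4. Their means were positive for 5 and negative for 2, and 1 passed against the pool (adjusted p = 0.0149 in limma). Over all genes 13 of 6191 passed (0.210%). Means were positive for 5 of 5 collecting duct and 3 of 4 tested leukocyte genes. Negative means were found for 5 of 6 tested endothelial and 7 of 9 smooth muscle and fibroblast genes, against 51.8% of all genes. No gene of these 4 further lists passed. The 2 seminal vesicle genes differed from each other: Svs5 stood at 0.21, -0.092, 4.94 and 1.09, and Spink1 was below the pool in all 4 mice, at -0.43, -0.16, -0.046 and -0.17. In whole kidney, fewer cells of a type and less RNA per cell cannot be told apart.

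Against the wild-type pool, no cell cycle or mitosis gene passed the test in knockout kidney. In limma on 1 value per mouse, 0 of 73 genes had an adjusted p under 0.05, against 13 of 6191 genes in all (0.210%). At an unadjusted p under 0.05 there were 13 of 73, 4 with a positive and 9 with a negative ratio, against 16.8% of all genes (6.80% positive and 10.0% negative). Thus the count at the unadjusted threshold was near the background. It was 7 of 73 without mouse 3 and 6 without mouse 4, when 660 and 572 of all genes were at that threshold, against 1041 with all mice. The same holds for signs: 17 of 73 genes had 1 sign in all 4 mice, 10 negative and 7 positive, against 25.7% of all genes (14.3% negative and 11.4% positive), and 39 of 73 had a negative mean, against 51.8%.

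The ratios of these genes lay close to 0. Their median was -0.0205, against -0.00382 over all genes, and 68 of 73 lay within 0.2 of 0 on the log2 scale. By mouse the medians were 0.0018, -0.0018, -0.0062 and -0.0056. The range ran between -0.36, for Pttg1, and 0.41, for Cdca8, and both extremes rest on wide differences between mice, described below. The median standard error of a gene was 0.0511 over 4 mice, against 0.0518 over all genes, which bounds what these arrays could show for a typical member.

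**Figure D2:**
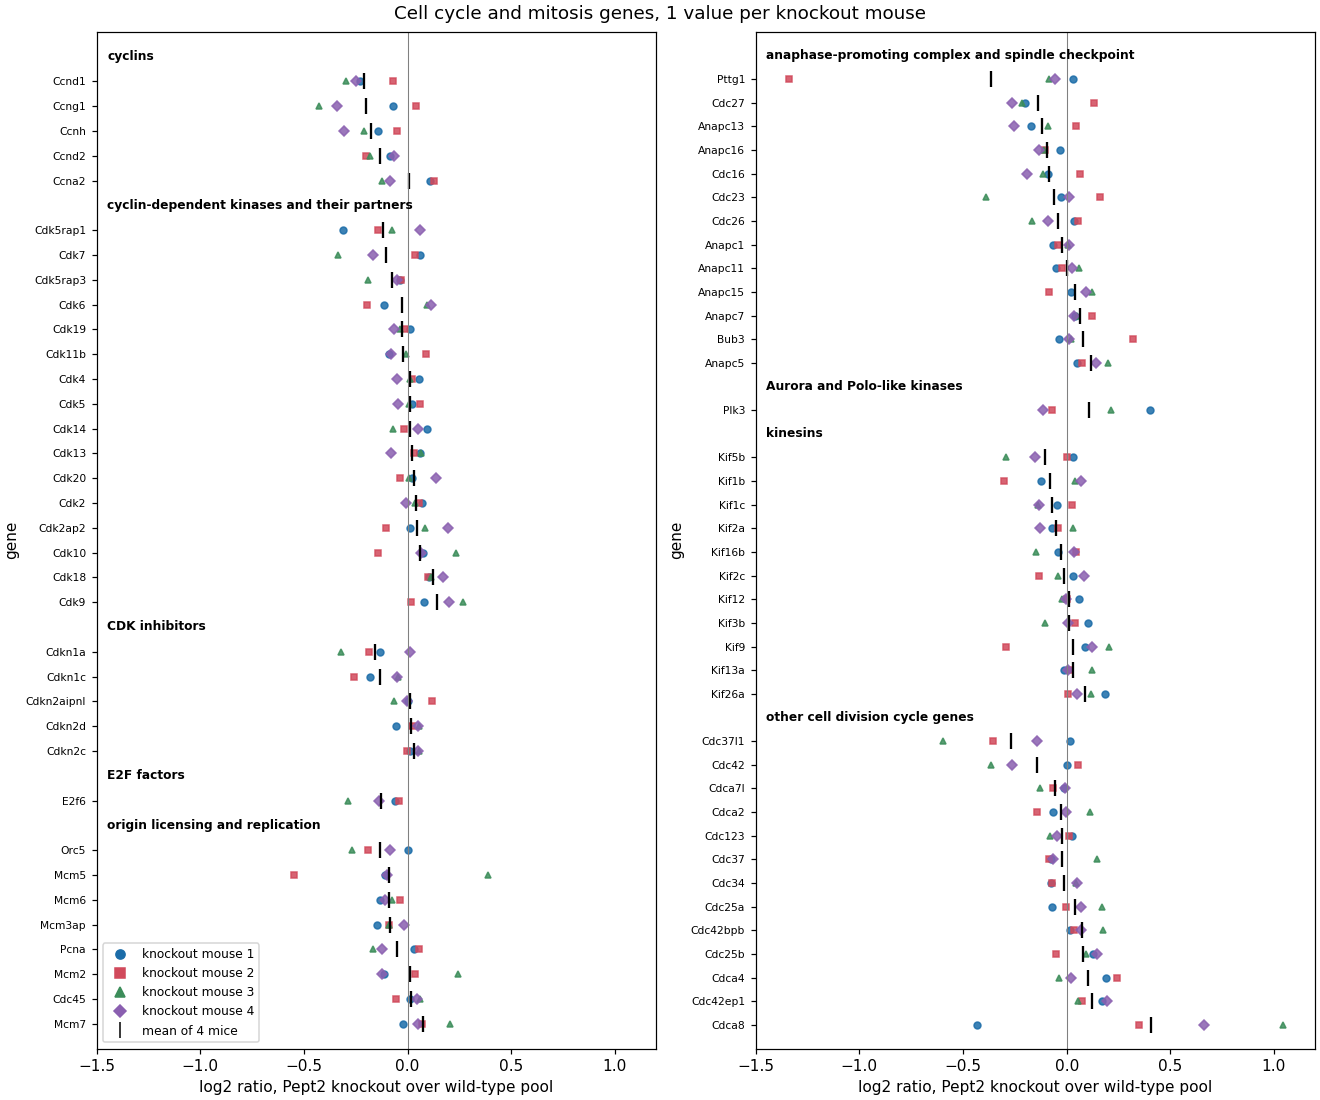
Log2 ratio of knockout over wild-type pool (x axis) for each of the 73 tested genes (y axis), grouped by role. Each coloured symbol is 1 knockout mouse and the black bar is the mean of 4 mice. Most genes lie within 0.2 of 0, and Pttg1 in mouse 2 (-1.34) and Cdca8 in mice 3 and 4 (1.04 and 0.66) stand away from the rest.

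The cyclins were the role group with the lowest median, -0.18 over 5 tested of 11 genes, and 4 of the 5 had a negative mean at an unadjusted p under 0.05, as did 10.0% of all genes. None passed after adjustment. Ccnd1, the D-type cyclin that pairs with Cdk4 and Cdk6, had log2 ratios of -0.23, -0.069, -0.30 and -0.25 in mice 1 to 4. It was below 0 in every mouse and on 15 of 16 arrays. The mean was -0.21 (SE 0.052, n = 4 mice), with an adjusted p of 0.148 in limma, the smallest of the 73 genes. Its size differed with the channel: the arrays with knockout RNA in channel 1 averaged -0.0905 and those with knockout RNA in channel 2 averaged -0.333. That orientation difference of 0.243 (SE 0.078) had an adjusted p of 0.186 in limma.

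Ccnd2, a second D-type cyclin, stood at -0.088, -0.20, -0.18 and -0.065 in the mice, with a mean of -0.13 (SE 0.047, adjusted p = 0.219 in limma). Single arrays of Ccnd2 ran between -0.62 and 0.35, so arrays differed more than mice. Ccnh, the partner of Cdk7 in the kinase that activates other CDKs and in the transcription factor TFIIH, stood at -0.14, -0.053, -0.21 and -0.31, with a mean of -0.18 (SE 0.053, adjusted p = 0.178 in limma). In mouse 4 that value rests on 1 array at -1.0, since its other arrays read 0.052, -0.34 and 0.066. The S phase and G2 cyclin gene Ccna2, measured on 9 arrays, had a mean of 0.0065, with mice 1 and 2 at 0.11 and 0.13 and mice 3 and 4 at -0.13 and -0.083. The fifth, Ccng1, differed between mice and is described with those genes.

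**Figure D3:**
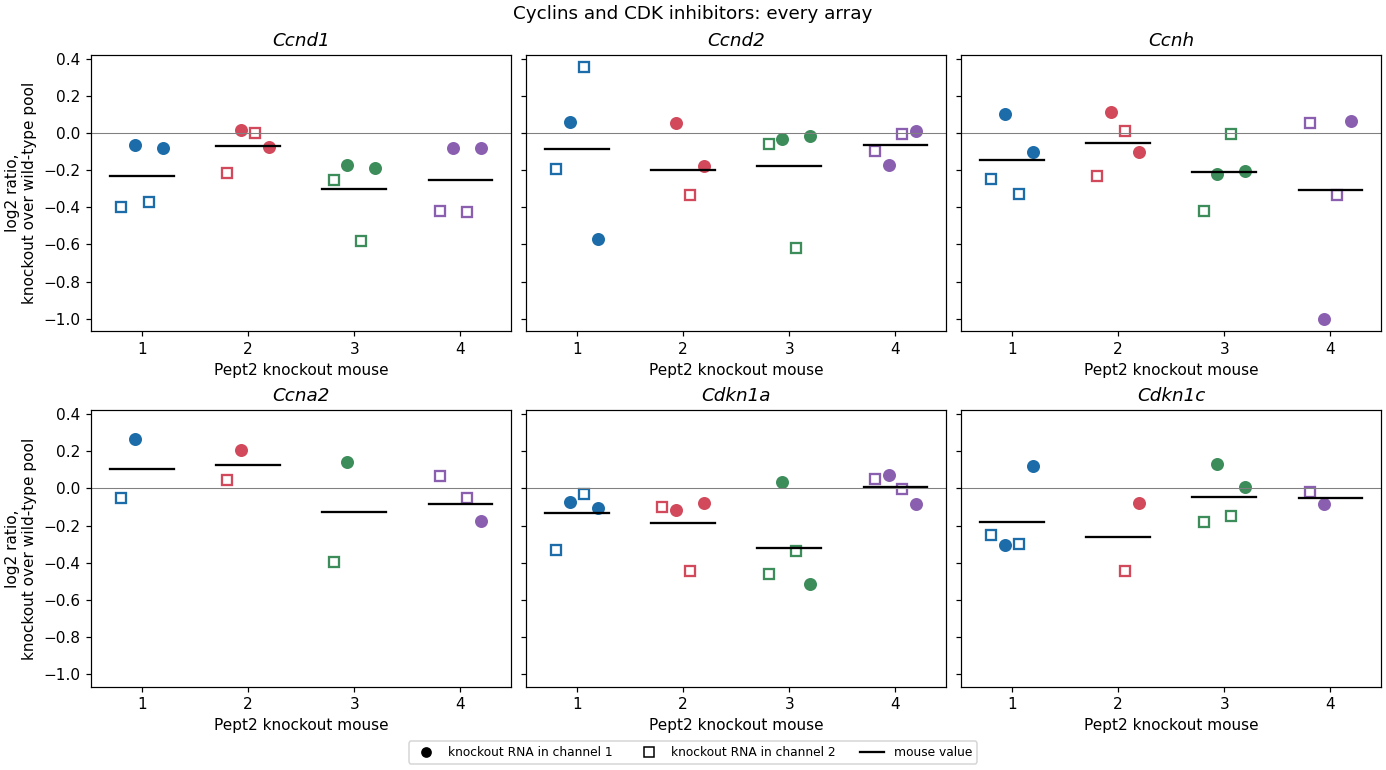
Log2 ratio of knockout over wild-type pool (y axis) on every array of each knockout mouse (x axis) for 4 cyclin genes and 2 CDK inhibitor genes. Filled circles had the knockout RNA in channel 1, open squares in channel 2, and bars are the value of the mouse. Ccnd1 lies below 0 on 15 of 16 arrays, with the open squares of mice 1, 3 and 4 lower than the circles.

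The kinases that cyclins activate lay on both sides of 0. Of 16 tested CDKs and partner genes (of 22), 6 had a negative and 10 a positive mean, with a median of 0.011 and a range between -0.12 and 0.14. Cdk4, Cdk6 and Cdk2, the kinases of the passage into S phase, had means of 0.0091, -0.026 and 0.039. These are smaller than the median standard error. Cdk9, the kinase that frees paused RNA polymerase II, stood at 0.077, 0.014, 0.27 and 0.20 (mean 0.14, SE 0.055, adjusted p = 0.260 in limma), and Cdk18, a kinase of the PCTAIRE family, at 0.10, 0.098, 0.11 and 0.17 (mean 0.12, SE 0.044, adjusted p = 0.229 in limma). Both were above 0 in all 4 mice without passing. Cdk5rap1, which modifies mitochondrial tRNAs, had the lowest mean, -0.12 (SE 0.062), with mouse 1 at -0.31 and mouse 4 at 0.058. Cdk7, the partner of Ccnh, stood at 0.059 and 0.033 in mice 1 and 2 and at -0.34 and -0.17 in mice 3 and 4, and Cdk10 ranged between -0.14 in mouse 2 and 0.24 in mouse 3.

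The CDK inhibitors were grouped by the symbol Cdkn, which also takes in genes such as Cdkn2aipnl that are not inhibitors. Of 8 genes so named 5 were tested, and 2 had a negative mean at an unadjusted p under 0.05, against 10.0% of all genes. Cdkn1a, which encodes the p53-induced inhibitor p21, stood at -0.13, -0.19, -0.32 and 0.0094 in mice 1 to 4, so that mouse 4 was at the level of the pool. Its mean was -0.16 (SE 0.059, adjusted p = 0.240 in limma). Cdkn1c, which encodes p57 and is found in podocytes, was measured on 12 arrays and stood at -0.18, -0.26, -0.046 and -0.050 (mean -0.14, SE 0.053, adjusted p = 0.260 in limma). Cdkn2c, which encodes p18, an inhibitor of Cdk4 and Cdk6, lay at 0.029 (SE 0.043). The other 2 tested genes with such names, Cdkn2d and Cdkn2aipnl, lay at 0.017 and 0.013. Of the E2F factors E2f6 alone was tested. It encodes a repressor that lacks the activation domain of its relatives, and it stood at -0.059, -0.040, -0.29 and -0.14, with a mean of -0.13 (SE 0.054, adjusted p = 0.275 in limma). Its 2 probes had nearly the same mean, -0.13 each.

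Genes of origin licensing and replication had 8 of 14 members tested, 5 negative and 3 positive, with a median of -0.069. Orc5, a subunit of the origin recognition complex, stood at 0.0036, -0.19, -0.27 and -0.086 (mean -0.14, SE 0.056, adjusted p = 0.273 in limma). The MCM helicase subunits showed no common direction: Mcm6 had a mean of -0.090, Mcm5 -0.092, Mcm2 0.0095 and Mcm7 0.076, and the sliding clamp Pcna had -0.050. Mcm5 had the widest spread of the group, with -0.11, -0.55, 0.39 and -0.099 in the mice. Its mouse 2 value rests on 1 array at -2.38, against -0.043 and 0.11 on the other 2 arrays of that mouse with a value. Mcm6 followed the channel more than the mouse, averaging -0.25 with knockout RNA in channel 1 and 0.073 with it in channel 2. Mcm3ap, an mRNA export factor named after its binding to Mcm3, stood at -0.087 (SE 0.045).

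The anaphase-promoting complex is the ubiquitin ligase that ends mitosis, and with the spindle checkpoint and securin it had 13 of 18 genes tested, 8 negative and 5 positive, with a median of -0.043. Anapc5, a scaffold subunit, was above 0 in all 4 mice, at 0.050, 0.075, 0.20 and 0.14 (mean 0.12, SE 0.047, adjusted p = 0.271 in limma). Anapc16 was below 0 in all 4, at -0.030, -0.11, -0.11 and -0.13 (mean -0.095, SE 0.045). Subunits of 1 complex thus lay on opposite sides of 0 without passing the test. Anapc13 had a mean of -0.12 (SE 0.057), but it averaged -0.29 with knockout RNA in channel 1 and 0.057 with it in channel 2. Cdc23, another subunit, tested on 1 of its 2 probes, had its low value in mouse 3, -0.39. Its values in mice 1, 2 and 4 were -0.029, 0.16 and 0.0095. Bub3, of the spindle checkpoint, had its highest value in mouse 2, 0.32, with -0.038, 0.021 and 0.013 in mice 1, 3 and 4. It did not pass the F test between mice (adjusted p = 0.853 in limma). These values rest on 1 of its 2 probes. With both probes, and arrays averaged without regard to orientation, mouse 2 read 0.073.

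Of the Aurora and Polo-like kinases only Plk3 was tested, a kinase of stress and DNA damage responses with values on 11 arrays. It stood at 0.40, -0.070, 0.21 and -0.12 in mice 1 to 4, a spread between mice (SD 0.244) wider than its mean of 0.11 (SE 0.084). The kinesins, 11 of 20 tested, lay between -0.10 and 0.088 with a median of -0.014, and 6 were negative and 5 positive. Kif2c, which depolymerises microtubules at the centromere, was the 1 spindle kinesin of the cycling-cell list that was tested, and it had a mean of -0.014. Kif5b, the heavy chain of conventional kinesin, had the lowest mean of the kinesins, -0.10 (SE 0.061), with mice 3 and 4 at -0.29 and -0.15 and mice 1 and 2 at 0.031 and 0.0012. Kif1c and Kif1b, which carry vesicles and organelles, stood at -0.073 and -0.080, and Kif26a, an atypical kinesin, at 0.088. Kif9, measured on 10 arrays, averaged -0.28 with knockout RNA in channel 1 and 0.35 with it in channel 2, around a mean of 0.032. That orientation difference did not pass (adjusted p = 0.170 in limma).

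Of the remaining genes named Cdc, 13 of 22 were tested, 7 negative and 6 positive. Cdc37l1, related to the Hsp90 co-chaperone Cdc37, stood at 0.015, -0.35, -0.60 and -0.14 (mean -0.27, SE 0.090, adjusted p = 0.196 in limma). Mouse 1 was at the level of the pool and mouse 3 lowest. Cdc42ep1, an effector of Cdc42, was above 0 in all 4 mice, at 0.17, 0.072, 0.055 and 0.19 (mean 0.12, SE 0.047, adjusted p = 0.256 in limma). The phosphatase genes Cdc25a and Cdc25b, which activate CDKs, had means of 0.041 and 0.079.

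When each array was counted as a measurement of its own with the mouse as a random block, 4 of the 73 genes passed (Ccnd1, Ccng1, Cdc37l1 and Cdk18), as did 401 genes in all. That fit estimated a correlation of 0.0532 between arrays of 1 mouse, and so it counted such arrays almost as different animals.

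The spread between the 4 knockout kidneys, in which the shared pool cancels, was the comparison in which cell cycle genes passed a test. In limma's moderated F test over mice, with the arrays as technical replicates and a term for dye orientation, 4 of 73 genes had an adjusted p under 0.05: Pttg1, Cdca8, Ccng1 and Cdc42. Over all genes 161 of 6191 passed (2.60%). At an unadjusted p under 0.05 there were 10 of 73 genes, against 13.7% of all. The median standard deviation between mice was 0.0948 for the members and 0.0993 over all genes, so that apart from these few genes the members varied about as much as other genes. The test compares these 4 animals by the error of repeated arrays, and says nothing of genotype.

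Pttg1 encodes securin, which holds separase inactive until anaphase. On its 1 probe it read -1.22, -1.04, -1.56 and -1.54 on the arrays of mouse 2. The other mice lay near the pool, at -0.071, 0.13 and 0.13 in mouse 1, 0.070, -0.12, -0.29 and -0.0055 in mouse 3, and -0.055, -0.095, -0.16 and 0.087 in mouse 4. Every array of mouse 2 was below every array of the other mice, in both orientations. The standard deviation between mice, 0.653, ranked 12 of 6191 genes, and the F test had an adjusted p of 4.64e-06 in limma. Without mouse 2 the standard deviation was 0.0597 and the adjusted p 0.859. No other probe followed the Pttg1 probe at r above 0.9 over 12 or more shared arrays. The nearest tested genes on either side of Pttg1 on chromosome 11 did not share the low value: they lay between -0.18 and 0.29 in mouse 2, among them Ccng1, 18 places away in gene order, at 0.042.

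Other genes of mitosis lay on both sides of the pool in mouse 2. There Bub3 stood at 0.32 and Cdc23 at 0.16, each on 1 of its 2 probes. With both probes, and arrays averaged without regard to orientation, these genes read 0.073 and 0.065. Ncapd2, a condensin subunit, stood at 0.20, and Racgap1, of the cytokinetic spindle, at 0.070. In the same mouse Kif2c stood at -0.13 and Cdca2, which brings a phosphatase to anaphase chromatin, at -0.14. The 12 tested cycling-cell genes, Pttg1 and Cdca8 included, had medians of -0.0057, -0.0453, 0.0756 and -0.0312 in mice 1 to 4.

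Cdca8 encodes borealin, a subunit of the chromosomal passenger complex that brings Aurora B to the centromere. Its 1 probe read -0.43, -0.48, -0.64 and -0.19 in mouse 1, 0.19, 0.49, 0.28 and 0.44 in mouse 2, 0.93, 1.19, 1.17 and 0.89 in mouse 3, and 0.56, 1.16, 0.16 and 0.78 in mouse 4. Mouse 1 was below the pool and the other mice above it, with no overlap. The standard deviation between mice was 0.628, rank 18 of 6191 genes, with an adjusted p of 2.06e-05 in limma, and without mouse 1 the adjusted p was 0.0779. This profile was shared by probes of unrelated genes: 26 other probes followed it at r above 0.9, of which 15 had no gene name, 9 named 1 gene each, among them Rlf, Tap1, Gamt and Il6st, and 2 named several genes, 1 of these only globin genes. The medians of the 26 were -0.44, 0.27, 1.07 and 0.64. The 2 tested erythroid markers had medians of 0.063, 0.030, 0.094 and 0.025. The part of erythroid RNA in the Cdca8 values was not tested. Genes of dividing cells that did not pass the test between mice were mixed in this respect. Mcm7, at -0.023, 0.070, 0.21 and 0.050 in mice 1 to 4, and Mcm2, at -0.11, 0.037, 0.24 and -0.12, were also below 0 in mouse 1 and highest in mouse 3. Mcm5 and Cdca2 were below 0 in mouse 1 and highest in mouse 3 as well. Ncapd2, outside the rule, was below 0 in mouse 1 only, at -0.43, as was Cdca8. Ccna2, Pcna (0.032 and -0.17) and Kif2c (0.032 and -0.040) were above 0 in mouse 1 and below it in mouse 3. Cdc45 and Cdc25b were above 0 in mice 1 and 3, and Mcm6 was below 0 in all 4 mice.

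Ccng1, an unusual cyclin induced by p53, and Cdc42 shared a different pattern, with mice 3 and 4 low. Ccng1 stood at -0.072, 0.042, -0.43 and -0.34 in mice 1 to 4 as the mean of 3 probes, which were lowest in mouse 3 at -0.50 and -0.56 and, for the third probe, lowest in mouse 4 at -0.26. Its arrays lay between -0.52 and -0.33 in mouse 3 and between -0.58 and -0.14 in mouse 4, against -0.19 to 0.041 in mouse 1 and -0.033 to 0.11 in mouse 2. Mouse 3 was apart from mice 1 and 2, while mouse 4 overlapped mouse 1. The F test had an adjusted p of 0.00911 in limma, which became 0.179 without mouse 2 and 0.133 without mouse 3.

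Cdc42 stood at 0.0020, 0.054, -0.37 and -0.26 as the mean of 2 probes, and 1 probe was lower in mice 3 and 4 (-0.49 and -0.42) than the other (-0.24 and -0.11). The adjusted p was 0.0341 in limma. It lost its call when any 1 mouse was left out (adjusted p between 0.0518 and 0.201), when the dye term was dropped (0.135), and without array 3 of mouse 3 and array 1 of mouse 4 (0.099), an alternative chosen after the data were seen. Those 2 arrays, of different mice, correlated at r = 0.623 across probes, above the highest r within a mouse (0.534). Across 16 arrays, Ccng1 and Cdc42 correlated at r = 0.893, a description over arrays that share the pool and the mice. Many probes shared the profile of 1 probe of each gene: 24 followed one Cdc42 probe at r above 0.9, among them Canx, Cltc, Ran and Ddx5. One Ccng1 probe was followed by 16. The other Cdc42 probe was followed by 4 probes, and the other Ccng1 probes by 1 and 3. Cdk7 and Kif5b, which did not pass, and Ccnl2, outside the rule, also had their lowest values in mice 3 and 4. Of the 2 seminal vesicle genes, Svs5 had its highest values in the same mice and Spink1 was below the pool in all 4, and the part of such RNA in these results was not tested. Without probes that correlate above 0.9 with 5 or more probes of other genes, 2 of 71 members passed, Pttg1 (adjusted p = 5.97e-06) and Ccng1 (adjusted p = 0.0349). With every probe kept, 2.60% of all genes passed. The share of all genes without those probes is not given here, so this count has no matching background.

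**Figure D4:**
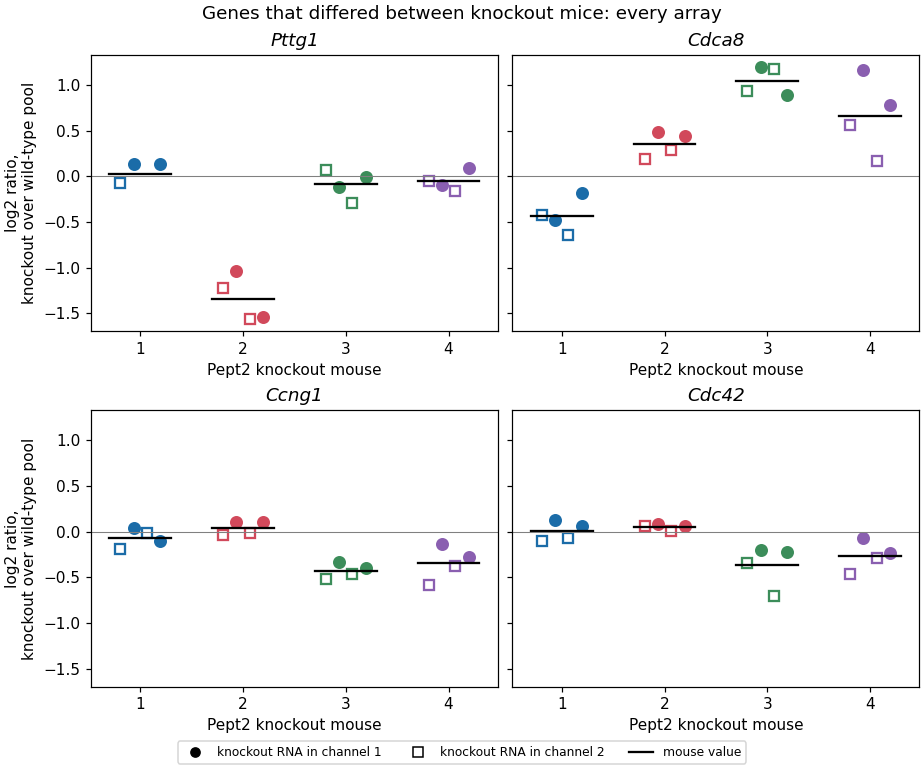
Log2 ratio of knockout over wild-type pool (y axis) on every array of each knockout mouse (x axis) for the 4 genes that passed the test between mice. Filled circles had the knockout RNA in channel 1, open squares in channel 2, and bars are the value of the mouse. Pttg1 is low on all 4 arrays of mouse 2, Cdca8 is below 0 in mouse 1 only, and Ccng1 and Cdc42 are lower in mice 3 and 4.

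The promoters of these 4 genes are shown because dividing-cell genes are commonly controlled there by E2F, by the CHR element and by CCAAT boxes, and p53 targets by the p53 half-site. Each window runs 250 bases before to 50 bases after the start of the gene, on the minus strand of GRCm38.p6 (RefSeq). Pttg1 lies at chr11:43425932-43426231, Cdca8 at chr4:124936868-124937167, Ccng1 at chr11:40755237-40755536 and Cdc42 at chr4:137357710-137358009. The sequences read 5′ to 3′ along the gene, and capitals mark matches on either strand. The first form of the E2F motif searched was TTCCCGC. The second form of the E2F motif was TTGGCGC. The CHR element was searched for by the letters TTTGAA. The CCAAT box was searched for by these letters, and the p53 half-site by its usual consensus.
Pttg1: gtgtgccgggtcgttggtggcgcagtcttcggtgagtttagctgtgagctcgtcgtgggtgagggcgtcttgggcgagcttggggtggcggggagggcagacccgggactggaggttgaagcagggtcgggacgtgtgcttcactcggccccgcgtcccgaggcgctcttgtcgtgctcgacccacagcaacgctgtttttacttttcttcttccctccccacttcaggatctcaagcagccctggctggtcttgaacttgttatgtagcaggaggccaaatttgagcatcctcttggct
Cdca8: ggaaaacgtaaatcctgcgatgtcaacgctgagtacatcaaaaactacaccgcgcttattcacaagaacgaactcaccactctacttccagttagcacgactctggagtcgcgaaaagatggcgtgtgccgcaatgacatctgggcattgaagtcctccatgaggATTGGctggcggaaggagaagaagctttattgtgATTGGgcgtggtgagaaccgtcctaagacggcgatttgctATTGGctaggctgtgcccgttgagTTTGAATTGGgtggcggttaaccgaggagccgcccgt
Ccng1: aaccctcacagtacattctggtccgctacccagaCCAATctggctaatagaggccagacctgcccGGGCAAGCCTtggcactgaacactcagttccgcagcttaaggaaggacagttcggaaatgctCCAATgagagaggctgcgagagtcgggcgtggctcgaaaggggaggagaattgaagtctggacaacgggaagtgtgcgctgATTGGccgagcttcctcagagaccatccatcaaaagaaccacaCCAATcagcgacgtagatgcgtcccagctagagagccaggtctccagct
Cdc42: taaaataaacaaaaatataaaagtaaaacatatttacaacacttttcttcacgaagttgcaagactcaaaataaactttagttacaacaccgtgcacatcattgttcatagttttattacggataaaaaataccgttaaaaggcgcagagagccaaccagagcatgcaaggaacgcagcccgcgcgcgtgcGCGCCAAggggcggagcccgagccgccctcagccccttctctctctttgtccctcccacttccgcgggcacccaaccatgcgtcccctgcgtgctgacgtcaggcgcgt
The Cdca8 window held 4 CCAAT matches, all on the opposite strand, and 1 CHR match that shares bases with the last of them. In the Ccng1 window there were 4 CCAAT matches and 1 p53 half-site, and in that of Cdc42 1 match to TTGGCGC on the opposite strand. The Pttg1 window held none of these letters, which says nothing of the factors.

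Of the 123 genes, 105 had an entry in the RefSeq promoter table. Over 36 windows of cycling-cell genes, CCAAT was found in 80.6%, TTTGAA in 58.3% and either E2F form in 30.6%. In the 87 windows of the other genes of the rule these shares were 39.1%, 13.8% and 11.5%, and over all 32851 RefSeq windows they were 37.4%, 17.9% and 6.81%. The p53 half-site was found in 5.56%, 10.3% and 8.36% of the same sets. The cycling-cell genes thus hold more of the letters of dividing-cell promoters, and they are the genes of which the arrays measured fewest. A match is a run of letters and not a measured site.

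**Figure D5:**
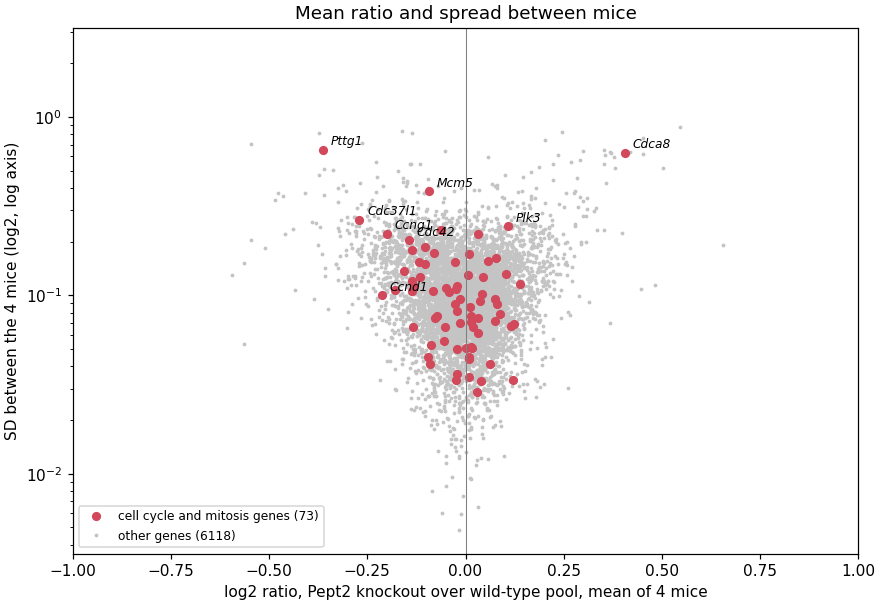
Mean log2 ratio of knockout over wild-type pool (x axis) against the standard deviation between the 4 knockout mice (y axis, log scale), with the 73 cell cycle and mitosis genes in red over the 6118 other tested genes in grey. The x axis ends at 1 in each direction and leaves out 2 other genes. Pttg1 and Cdca8 lie at standard deviations of 0.653 and 0.628, above the other members.

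Ratios of some genes differed with the channel of the knockout RNA, and each mouse value averages both orientations. No gene passed the test of the orientation difference in limma, 0 of 73 members and 0 of 6191 genes (0%), while at an unadjusted p under 0.05 there were 16 members, against 19.5% of all genes. Among probes with a value on all 16 arrays, 1 of 33 members passed, Mcm6 (difference -0.326, adjusted p = 0.0334 in limma), with 104 genes in all.

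The wider pathway gave no call against the pool either. Of 92 further genes on the array, 61 of S phase and mitosis and 31 of cell cycle control, 56 were tested and 0 passed in limma. The S phase and mitosis genes had 33 tested, 18 negative and 15 positive, with a median of -0.0081, and 2 were at an unadjusted p under 0.05, against 16.8% of all genes. Cdt1, which loads the MCM helicase onto origins, had the smallest adjusted p of both lists, 0.102 in limma. It stood at 0.18, 0.29, 0.36 and 0.23 in mice 1 to 4 (mean 0.27, SE 0.048), above 0 in every mouse and on 10 of 12 arrays. The GINS subunits Gins3 and Gins4, which travel with that helicase, had negative means of -0.14 and -0.094, so that licensing and helicase genes lay on both sides of 0. Racgap1 read -0.61 in mouse 3, while mice 1, 2 and 4 read -0.075, 0.070 and -0.14. The only arrays of mouse 3 with a value read -1.03 and -0.19. The gene did not pass the F test between mice (adjusted p = 0.495 in limma).

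The control genes had 23 tested, 17 negative and 6 positive, with a median of -0.039, where 51.8% of all genes were negative, and 3 were at an unadjusted p under 0.05, against 16.8% of all genes. Sfn, which encodes the G2 checkpoint protein 14-3-3 sigma, stood at 0.19, 0.16, 0.26 and 0.28 (mean 0.22, SE 0.046, adjusted p = 0.117 in limma). Tfdp1, the dimer partner of E2F factors, stood at -0.078, -0.12, -0.19 and -0.062 (mean -0.11, SE 0.046, adjusted p = 0.273 in limma). Both had 1 sign in all 4 mice without passing. Gadd45g, a growth arrest and stress gene, stood at 0.023, -0.30, -0.88 and -0.48, with a mean of -0.41 (SE 0.12, adjusted p = 0.177 in limma). It differed between mice, with an F test adjusted p of 0.0336 in limma, and this call was lost without mouse 1 (0.289) or mouse 3 (0.372). Ccnl2, a cyclin of RNA splicing, also passed the F test (adjusted p = 0.00928), at 0.13, -0.032, -0.43 and -0.38, and lost it without mouse 1 (0.152).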

How the data were processed

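The deposited values, 1 per probe and array, are log2 ratios of the 2 channels. Per the labels, the authors scanned with a GenePix 4000A, subtracted background from mean intensities in GenePix Pro 3.0 and scaled each array to a median ratio of 1. The sources used here give neither the numerator nor the dye of each channel nor the rule behind blank cells. The log base was inferred from the values: 46.5% of the distances between repeated values were the log2 of small whole-number fractions, and none fitted other bases. The annotation gave 1 gene symbol for 11723 of 20205 probes, several for 806 and none for 7676. Each array was centred on its median, and ratios were turned to knockout over pool. Arrays were averaged within each orientation and then over both to give 1 value per mouse, and probes of a gene were averaged. Probes with a value in both orientations of every mouse (10804) were tested.

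Ratios were tested against 0, between mice and between orientations with limma 3.58.1 in R 4.3.3, two-sided, with Benjamini-Hochberg adjustment over 6191 genes and a threshold of 0.05. The fits were tested on simulated data, drawn independently for each gene and so without the shared profiles of these data. The outcome is not given here. Alternatives covered centring, scaling, blanks, channel, array pairs, choice of probe, and leaving out each mouse. Precision is limited by how many mice and arrays there were. Genes named are Slc15a2, members past any test, and for each role and pathway list the 3 smallest p and 2 largest standard deviations. Other genes named were chosen after their values were seen. These were untested genes, genes sharing a profile, Svs5, Spink1, Cdk4, Cdk6, Cdk2, Cdkn2d, Cdkn2aipnl, Mcm7, Pcna and Bub3. Kif2c, Cdca2, Cdc25a, Cdc25b and Cdc45 were chosen in the same way. The members and lists were chosen with earlier results of these data known. Promoter windows come from RefSeq (GRCm38.p6).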

Additional observations from a re-analysis of the deposited data

Results flagged for a closer look

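Of the 44 genes named by rule, which leave out those chosen after their values were seen, 2 had 1 mouse far from the other 3. This was measured as the gap to the nearest mouse over the whole range of the 4. Chance flags about 1 in 20 such groups, and 4.91% of all tested genes had such a mouse. Pttg1 stood at -1.34 in mouse 2, against -0.0856 to 0.0291 in the other mice, and passed the F test between mice (adjusted p = 4.64e-06 in limma). Ncapd2 stood at -0.429 in mouse 1, against 0.168 to 0.224 in the others, and did not pass it (adjusted p = 0.108 in limma). Mouse 1 had values on 2 arrays, -0.12 and -0.74, for that gene. Bub3, outside the 44, was also this far apart in mouse 2, at 0.32 against -0.038 to 0.021 in the others. It did not pass the F test between mice (adjusted p = 0.853 in limma).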

How the results depend on the processing

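Against the pool the number of members past the threshold was 0 under every alternative but the random block, with 4 members, 3 pathway genes and 401 genes in all. The median log2 ratio of the members, -0.0205, kept its sign but moved to -0.00874 without centring, -0.014 with scaled arrays, -0.0277 for probes without blanks, -0.00724 with knockout RNA in channel 1, -0.0425 in channel 2, -0.0274 on arrays 3 and 4, and -0.00883 with medians of arrays. It was 0.00378 for probes with at least 1 value in each mouse, and ran between -0.0119 and -0.00164 when 1 mouse was left out. The number of members at an unadjusted p under 0.05, 13, was 6 of 33 for probes without blanks, when 637 of all genes were. It was 7 of 51 on arrays 1 and 2, with 631 of all genes, and 6 of 41 on arrays 3 and 4, with 555. How many genes were tested in all in these settings is not given here. The number ran between 6 and 12 without 1 mouse, with 1064, 1147 and 660 of all genes without mouse 1, 2 or 3. The number past the test between mice, 4, ran between 1 and 3 without 1 mouse and was 2 without shared-profile probes. The shares of all genes past that test in these settings are not given here. The dye test called 1 member on probes with all 16 arrays. Signs reversed, with no call, for Kif1c (0.0639 with at least 1 value in each mouse, 0.0368 in channel 1), Cdkn2c (-0.0521 in channel 1, -0.0292 on arrays 1 and 2), Anapc16 (0.0222 in channel 1), Mcm6 (0.0731 in channel 2), Anapc13 (0.0571 in channel 2) and Gins3 (0.0215 on arrays 3 and 4). The cause was not tested. No paired analysis was possible because the series has 1 group of mice against 1 pool. Without intensities, signal over background could not limit the values.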
